A study of Rattus with 27 samples.

Results

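The integrated stress response genes described here are Atf4, its target Atf3, the related factor Atf5, the Chop gene Ddit3, and the target genes Trib3, Asns, Chac1, Ppp1r15a and Sesn2. They were chosen by name as genes of the Atf4 pathway, with earlier results of these data known. Of the 9 genes, 8 were measured, among 14506 genes in all, each by 1 probe that names a single gene. No probe was listed for Sesn2 in the annotation used here, and it was not analysed. The probes were 10897760 for Atf4, 10770710 for Atf3, 10721480 for Atf5, 10895861 for Ddit3, 10850775 for Trib3, 10860951 for Asns, 10838823 for Chac1 and 10721865 for Ppp1r15a.

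RNA was measured on 27 Affymetrix rat Gene 1.0 arrays from 9 Sprague Dawley rats, with brain homogenate, spleen homogenate and separated white blood cells of each rat on 1 array each. All samples carry a time of 6 h, with no event named from which it counts, and no label gives the age or sex of the rats. In every tissue 3 arrays came from sham rats (numbers 3, 4 and 5), which underwent anaesthesia and separation of the vessels alone, 3 from rats labelled model (1, 2 and 3) and 3 from rats labelled vehicle (2, 4 and 5). Both of the latter groups underwent middle cerebral artery occlusion (MCAO), a blockage of a main artery of the brain that models ischaemic stroke. The protocol names a vehicle control and a group given YJ, the Yiqi Jiedu formulae, at 25 mg/kg, while the titles name model and vehicle. The labels do not say which titled group was given YJ, so no group is called treated here. Whole homogenates mix injured and uninjured tissue and all cell types. In such samples fewer cells of a type and less RNA per cell cannot be told apart.

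In the integrated stress response, kinases that sense misfolded protein, amino acid shortage, haem shortage or viral RNA phosphorylate the initiation factor eIF2. General translation then falls, while the mRNA of Atf4 is translated more. Atf4 protein switches on genes for amino acid supply and for further factors, among them Atf3 and Chop, and Ppp1r15a then reverses the phosphorylation. Brain ischaemia is a known trigger of this response. The arrays measured RNA alone, so neither translation nor the phosphorylation of eIF2 was seen.

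Replicate arrays of a group correlated at r between 0.976 and 0.995 across all 27596 probes. Array medians over these probes lay between 4.96 and 5.31 on the log2 intensity scale, the unit of every level below. On 4 arrays (brain model 2, blood sham 3, spleen model 2 and spleen vehicle 2) the mean over all probes was 5.43 to 5.48, against 5.31 to 5.36 on the others. In the brain 2 arrays stood apart on regional markers. For the 4 of 9 cortex markers measured, the mean relative to the sham average was -2.27 in sham 5 and -1.51 in vehicle 2, against 0.18 to 1.18 on the other 7 brain arrays. Hypothalamus and thalamus markers stood at 1.70 in sham 5 and between -1.07 and -0.54 on the other 8. Brain results below are given with all brain arrays and, where stated, also without sham 5 and vehicle 2. Brain samples also differed in markers of other cells. Of 8 monocyte and macrophage markers 1 was called higher after MCAO in limma, and their mean stood 0.50 to 0.54 above the sham mean in model-labelled brains and -0.02 to 0.41 from it in vehicle-labelled ones, against -0.11 to 0.06 in sham. Of 8 endothelium markers 1 was called lower after MCAO, with list means of -0.26 to 0.05 in model-labelled and -0.28 to -0.10 in vehicle-labelled brains, against -0.07 to 0.05 in sham. In the next 4 lists 0 genes were called in the brain after MCAO (limma), and values are again relative to the sham mean. Striatum markers (7 measured) stood at 1.39 in model 3 and 1.09 in vehicle 4, against -0.44 to 0.41 on the other brain arrays. Neutrophil markers (11 measured) averaged 0.47 to 0.70 in model-labelled brains, 0.12 to 0.28 in vehicle-labelled ones and -0.12 to 0.12 in sham, and oligodendrocyte markers (9 measured) -1.23 to 0.18, 0.32 to 1.06 and -0.38 to 0.33. Choroid plexus markers reached 1.89 in model 3, against -0.09 to 0.71 on the other brain arrays. The part of these differences in the brain results was not tested. The tissues bore out their labels, with neuron markers at a mean of 9.41 in sham brain against 4.08 in white cells and 4.11 in spleen, and T cell markers at 8.77 in white cells and 7.98 in spleen against 4.32 in brain.

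In the brain, Atf4, Atf3 and Ppp1r15a rose after MCAO. These were 3 of the 8 measured genes, and 0 fell, at an adjusted p under 0.05 in limma with Benjamini-Hochberg adjustment. Of the 3, Atf3 had the largest log2 difference, 2.66 ± 0.42 (SE), from sham readings not shown to be above background. Of all 14506 genes, 0.745% were called higher in this comparison. The median difference of the 8 genes was 0.56, against 0.02 for all genes. At an unadjusted p under 0.05 the count of the 8 was 6. P-values here measure the spread between 3 rats per group.

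Atf4, the transcription factor at the centre of the response, stood at 7.79, 7.93 and 8.08 in the sham brains 3, 4 and 5. In the model-labelled brains it stood at 8.83, 8.50 and 8.65 and in the vehicle-labelled brains at 8.40, 8.74 and 8.44. Every MCAO brain lay above every sham brain, and both operated groups covered much the same range. The difference between the mean of both operated groups and sham was 0.66 ± 0.12, or 1.58-fold (limma, adjusted p = 0.0447).

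Atf3, a bZIP factor that is induced early by many kinds of stress, read 4.41, 4.66 and 4.32 in the sham brains. These sham values all lay under 5.11, the 40th percentile of gene means in the brain, and were not shown to be above background. Its log2 differences from sham are therefore differences between array readings, and no fold is given for Atf3. It read 7.50, 7.41 and 7.09 in the model-labelled brains 1, 2 and 3, and 5.55, 7.98 and 7.19 in the vehicle-labelled brains 2, 4 and 5. Its groups did not overlap either, and the lowest MCAO value by far was that of vehicle 2, a brain array low in cortex markers. The adjusted p of the difference was 0.0191 (limma). The SD was 1.24 in the vehicle-labelled group, 0.22 in the model-labelled group and 0.18 in sham (n = 3 each).

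Ppp1r15a, also known as Gadd34, encodes the stress-induced subunit that directs a phosphatase to eIF2. Its levels were 5.82, 5.48 and 5.80 in sham brains, 7.29, 7.22 and 6.88 in the model-labelled brains and 6.12, 7.12 and 6.59 in the vehicle-labelled brains. All MCAO brains lay above sham, again with vehicle 2 the lowest of them. The rise was 1.17 ± 0.20, or 2.25-fold (limma, adjusted p = 0.0333).

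Ddit3 encodes Chop, a factor tied to cell death under lasting stress. It read 6.03, 6.00 and 6.73 in sham brains, 6.90, 6.71 and 6.58 in the model-labelled brains and 7.13, 7.07 and 7.19 in the vehicle-labelled brains. The vehicle-labelled arrays were all above both other groups, whereas the sham 5 value fell within the model-labelled range. The difference was 0.68 ± 0.16 with an adjusted p of 0.127 (limma), short of the threshold. Chac1, which degrades glutathione and is a target of Atf4, read 5.35, 5.48 and 4.97 in sham, 5.93, 5.78 and 5.88 in the model-labelled and 5.37, 5.64 and 5.81 in the vehicle-labelled brains. The model-labelled brains lay above all sham brains and the vehicle-labelled ones overlapped them. The difference of 0.47 ± 0.14 did not pass (adjusted p = 0.222, limma).

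Atf5, a relative of Atf4 that is translated under the same control, was the one gene of the 8 with lower values in every MCAO brain. Its sham levels were 6.59, 6.73 and 6.58, its model-labelled levels 6.45, 6.51 and 6.37, and its vehicle-labelled levels 6.54, 6.29 and 6.28. The difference of -0.23 ± 0.10 had an adjusted p of 0.429 (limma), so no change was called. Of the 8 genes, Atf4, Atf3 and Ppp1r15a had all MCAO brains above all sham brains, against 3.10% of all genes, and Atf5 had all below, against 1.48%. For separations between single groups of 3 arrays no share of all genes is given here. Such separations, in any tissue, are descriptions only.

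Asns and Trib3, textbook targets of Atf4, showed no change that passed in the brain. Asns, the synthase that makes asparagine, read 6.88 to 7.14 in sham, 7.18 to 7.35 in the model-labelled and 7.02 to 7.54 in the vehicle-labelled brains, with adjusted p = 0.561 for the MCAO difference (limma). Trib3, a pseudokinase that binds Atf4 and restrains it, read 3.48 to 3.99, 3.70 to 4.13 and 3.52 to 4.20 in the same order (adjusted p = 0.684, limma). Trib3 lay under the 40th percentile of gene means in all 3 tissues, the filter used here for low values, and the other 7 genes passed it in each tissue. In the brain Atf3 passed it only through the MCAO arrays, which lay at 5.55 to 7.98.

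**Figure D1:**
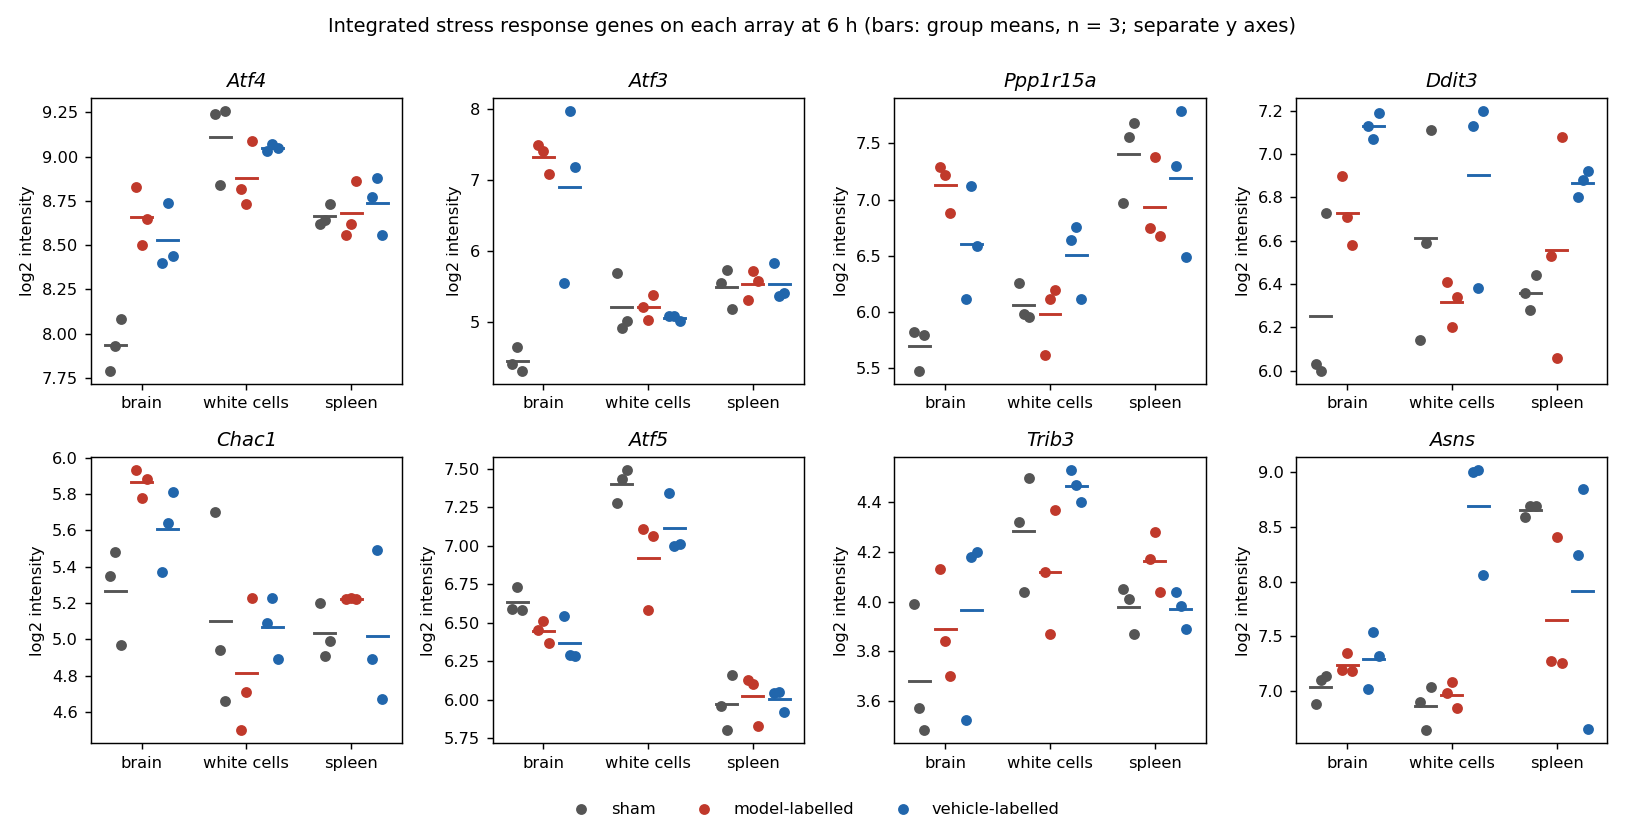
Log2 intensity (y axis, on a separate scale for each gene) of the 8 measured genes on every array, by tissue (x axis) and group, with 1 point per rat and bars at the group means (n = 3). In the brain the MCAO points of Atf4, Atf3 and Ppp1r15a all lie above sham, and in white cells the vehicle-labelled points of Asns lie at 8.06 to 9.02, above all others there.

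Set apart by group, the model-labelled brains gave the same 3 calls against sham: Atf3 at 2.87 ± 0.48 (adjusted p = 0.0236), Ppp1r15a at 1.43 ± 0.23 (0.0208) and Atf4 at 0.73 ± 0.14 (0.0454, limma). In this comparison 1.08% of all genes were called higher, and the median difference of the 8 genes was 0.54 against 0.03 for all genes. For the vehicle-labelled brains 0 of the 8 genes passed in limma, with 5 at an unadjusted p under 0.05, while 0.0483% of all genes were called higher. The values there were 2.44 ± 0.48 for Atf3 (adjusted p = 0.126), 0.88 ± 0.19 for Ddit3 (0.154), 0.59 ± 0.14 for Atf4 (0.18) and 0.91 ± 0.23 for Ppp1r15a (0.225). These 2 comparisons share the sham arrays. Between the operated groups themselves 0 of the 8 genes differed in limma, 0 had an unadjusted p under 0.05, and 0.0551% of all genes were called in either direction, so no difference between model-labelled and vehicle-labelled brains was shown for any of them.

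Without the brain arrays of sham 5 and vehicle 2, 4 of the 8 genes were called higher after MCAO, where 1.85% of all genes were. Atf3 then stood at 2.92 ± 0.20 (adjusted p = 0.00011), Ppp1r15a at 1.34 ± 0.18 (0.0037), Ddit3 at 0.92 ± 0.12 (0.00391) and Atf4 at 0.77 ± 0.14 (0.0175, limma). Ddit3 was the gene added. For the vehicle-labelled brains alone, Atf3 at 3.05 ± 0.24, Ddit3 at 1.12 ± 0.15 and Ppp1r15a at 1.21 ± 0.21 then passed (limma, adjusted p = 0.000486, 0.00494 and 0.0228), where 1.23% of all genes were called higher. Atf4 at 0.73 ± 0.16 did not (adjusted p = 0.0596, limma). The call of Ddit3 turned on sham 5: leaving out that array alone gave 0.92 with an adjusted p of 0.0158 (limma).

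The 3 brain calls were close to the threshold, and single arrays ended them. Leaving out any 1 of the sham or model arrays or vehicle 5 gave Atf3 differences of 2.59 to 2.76 with adjusted p from 0.0556 to 0.0942. For Ppp1r15a the same 7 omissions gave 1.06 to 1.23 with adjusted p from 0.0578 to 0.187. For Atf4 these 7 and vehicle 4 gave 0.59 to 0.73 with adjusted p from 0.055 to 0.203 (limma throughout). Against sham, the model-labelled calls of Atf3 ended without any 1 of those 2 groups' arrays (2.79 to 2.99, adjusted p 0.0597 to 0.111), those of Atf4 without any of them or vehicle 5 (0.64 to 0.81, 0.0544 to 0.176), and those of Ppp1r15a without model 1, 2 or 3 or sham 3 or 4 (1.32 to 1.56, 0.0524 to 0.103). Each omission leaves 8 arrays for the fit. In the vehicle-labelled brains, leaving out vehicle 2 alone brought Atf3 to 3.12 (adjusted p = 0.00114) and Ppp1r15a to 1.16 (0.0401), and leaving out sham 5 alone brought Ddit3 to 1.12 (0.0222, limma).

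**Figure D2:**
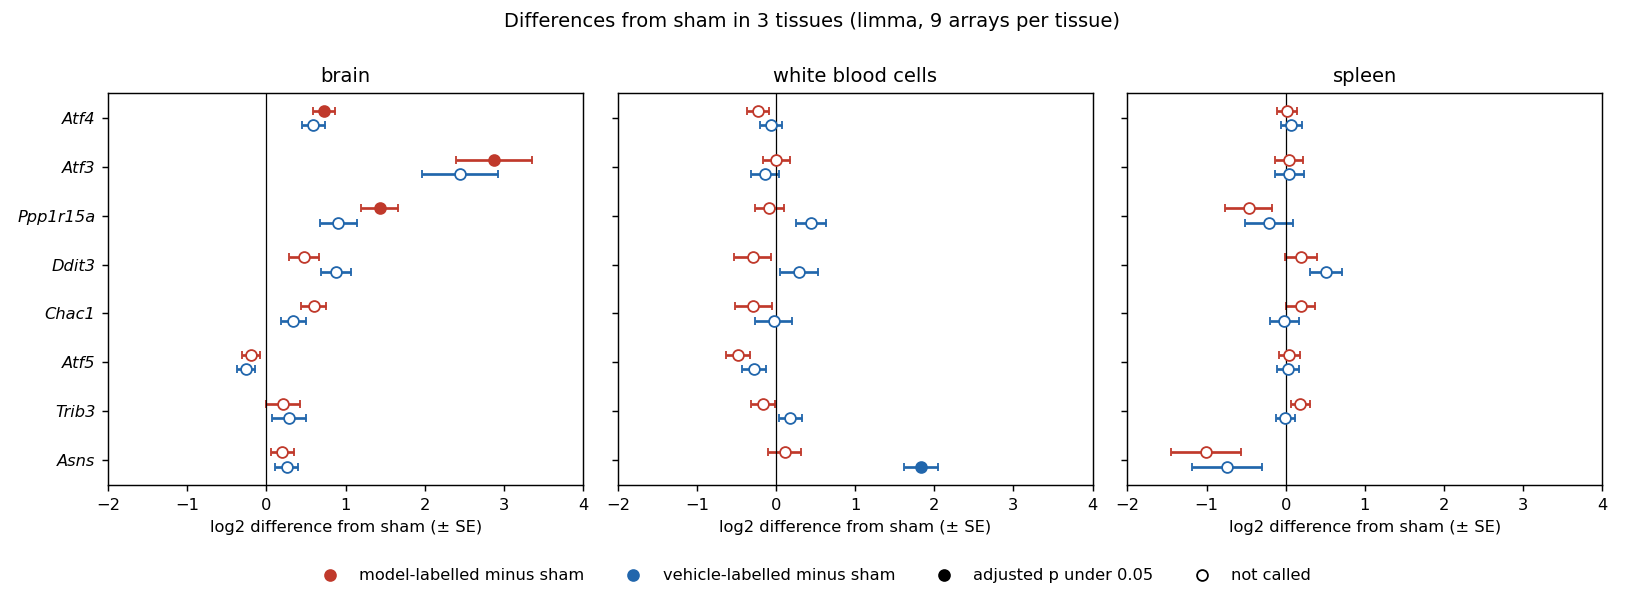
Log2 difference from sham (x axis, with its SE from limma) for the 8 genes in brain, white blood cells and spleen, for the model-labelled and the vehicle-labelled group (n = 3 arrays per group), where filled points have an adjusted p under 0.05. Filled points stand at Atf4, Atf3 and Ppp1r15a in the model-labelled brain and at Asns in the vehicle-labelled white cells, and the spleen has none.

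The genes around Atf4 in the pathway were counted in 6 lists. The upstream list held the 4 eIF2 kinases, the subunits of eIF2 and of its exchange factor eIF2B, and their regulators. Of its 16 genes 0 were called in the brain after MCAO (limma, 3 at an unadjusted p under 0.05, median -0.05 against 0.02 for all genes). The 4 with the smallest p were Dnajc3, a kinase inhibitor of the endoplasmic reticulum, at 0.48 ± 0.16 (adjusted p = 0.29), Eif2s3 at -0.28 ± 0.11 (0.406), Impact at -0.73 ± 0.32 (0.43) and Ppp1r15b, the constitutive counterpart of Ppp1r15a, at 0.23 ± 0.11 (0.465).

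Downstream, amino acid supply showed little beyond the threshold in the brain. Among 20 genes of amino acid synthesis and transport known as Atf4 targets 0 were called (limma, 6 at an unadjusted p under 0.05, median 0.20). Slc1a4, a neutral amino acid transporter, stood at 0.69 ± 0.19 (adjusted p = 0.185), Slc3a2 at 0.34 ± 0.10 (0.237), the mitochondrial folate enzyme Mthfd2 at 0.53 ± 0.18 (0.282) and Shmt2, which turns serine into glycine, at 0.56 ± 0.20 (0.341). The list of cytosolic tRNA synthetase genes with the tRNA exporter Xpot had 13 genes, of which 0 were called and 12 had positive differences (limma, 7 at an unadjusted p under 0.05, median 0.24). The 4 with the smallest p were Yars1 at 0.49 ± 0.11 (adjusted p = 0.113), Eprs1 at 0.45 ± 0.12 (0.165), Iars1 at 0.46 ± 0.15 (0.268) and Aars1 at 0.28 ± 0.11 (0.355, limma). Between the operated groups, all 13 were nominally higher in vehicle-labelled than in model-labelled brains, with a median of 0.31 against -0.01 for all genes, as were 15 of the 16 upstream genes (median 0.27), but 0 of either list were called (limma, 7 and 6 at an unadjusted p under 0.05). A count without sham 5 and vehicle 2 was added after the data were seen. In it 2 of the 20 (Mthfd2 and Shmt2) and 3 of the 13 (Eprs1, Iars1 and Yars1) were called higher after MCAO, where 1.85% of all genes were. Against sham, vehicle-labelled brains gave Mthfd2, Shmt2, Cars1, Iars1 and Yars1, where 1.23% of all genes were called higher. Model-labelled brains gave Slc1a4 and Eprs1 against sham. Iars1 was also called higher in vehicle-labelled than in model-labelled brains (limma). For these last calls, of Slc1a4, Eprs1 and Iars1, no share of all genes is given here, so they are descriptions only. The upstream list gave 0 calls in this count.

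Other targets of Atf4, Chop or Atf5 included 2 of 19 genes that rose in the brain (median 0.23). Herpud1, which takes part in the disposal of misfolded protein, read 6.43, 6.61 and 6.88 in sham, 7.16, 7.30 and 7.34 in the model-labelled and 7.98, 8.09 and 7.70 in the vehicle-labelled brains (0.96 ± 0.13, adjusted p = 0.0117, limma). Ddit4, an inhibitor of the mTORC1 growth pathway, read 6.77, 6.72 and 7.02 in sham, 7.19, 7.55 and 7.19 in the model-labelled and 7.55, 7.79 and 7.63 in the vehicle-labelled brains (0.65 ± 0.12, adjusted p = 0.0488, limma). The 3 groups of Herpud1 were ordered without overlap, with the vehicle-labelled brains highest, but the contrast of vehicle-labelled with model-labelled brains called 0 of the 19 genes (limma, 5 at an unadjusted p under 0.05). Vegfa, the vascular growth factor, at 0.85 ± 0.19 (adjusted p = 0.0965) and Gdf15, a secreted stress hormone, at 0.58 ± 0.19 (0.268) did not pass. Against sham, Herpud1 was the only 1 of the 19 called in vehicle-labelled brains (1.28 ± 0.15, adjusted p = 0.0278, limma), where 0 were called in model-labelled brains (6 at an unadjusted p under 0.05). Leaving out sham 3 or sham 4 ended the MCAO call of Herpud1 (adjusted p at most 0.0811), and leaving out any array but vehicle 2 or sham 5 ended that of Ddit4 (0.074 to 0.243) and the vehicle-labelled call of Herpud1 (0.0545 to 0.145, limma). Without sham 5 and vehicle 2, Herpud1, Ddit4 and Stc2 were called higher after MCAO, where 1.85% of all genes were. Nupr1 was called lower, with no share of all genes given here. Against sham, Herpud1 was then called in model-labelled brains as well, again with no share of all genes given. Vehicle-labelled brains gave 5 of the 19 higher, where 1.23% of all genes were, and 1 lower (limma).

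Among 16 relatives and bZIP partners of these factors, 4 rose in the brain (median 0.17). The immediate early genes Fos and Jun stood at 2.97 ± 0.27 (adjusted p = 0.00203) and 1.67 ± 0.28 (0.0286), Crem at 0.94 ± 0.11 (0.00959) and Cebpd at 1.20 ± 0.15 (0.00959, limma). Jun, which pairs with Atf3, read 6.34, 6.18 and 6.51 in sham, 8.26, 8.12 and 8.04 in the model-labelled and 7.02, 8.63 and 8.03 in the vehicle-labelled brains, with vehicle 2 again the lowest MCAO value. Fos did not share that order: it read 9.89, 8.90 and 9.37 in the model-labelled and 7.81, 7.28 and 6.85 in the vehicle-labelled brains, with 5.65, 5.60 and 4.89 in sham. Against sham alone, 5 of the 16 passed in model-labelled brains, the same 4 and Trib1, and 0 passed in vehicle-labelled brains (limma, 7 at an unadjusted p under 0.05). Without sham 5 and vehicle 2, the same 4 were called higher in vehicle-labelled brains as well, where 1.23% of all genes were. Fos was then called lower in vehicle-labelled than in model-labelled brains (limma), a comparison for which no share of all genes is given here. When 1 array was left out, the MCAO call of Fos stood in 9 of 9 fits, those of Crem and Cebpd ended without sham 4 (adjusted p = 0.0594 and 0.0627), and that of Jun ended without any array but vehicle 2 or 4 (0.0555 to 0.159). In model-labelled brains Fos, Crem and Cebpd passed in 9 of 9, Jun ended without the same 7 arrays (0.0586 to 0.143), and Trib1 without any array but vehicle 2 (0.0553 to 0.167, limma).

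The Xbp1 and Atf6 branches are the other arms of the response to misfolded protein in the endoplasmic reticulum. Of 14 measured genes of 16 listed, Hspa5 at 1.14 ± 0.18 (adjusted p = 0.0185) and Calr at 0.68 ± 0.09 (0.0117, limma), both chaperone genes, rose in the brain. The median was 0.41 against 0.02 for all genes. Hsp90b1 at 0.50 ± 0.12 (adjusted p = 0.117) and Dnajb11 at 0.43 ± 0.10 (0.121) did not pass. Leaving out sham 3 or 4 ended the call of Calr (adjusted p at most 0.0711), and leaving out vehicle 4 or 5, model 3, or sham 3 or 4 ended that of Hspa5 (0.0538 to 0.107, limma). Against sham, model-labelled brains gave 2 of the 14, Hspa5 at 1.15 ± 0.20 (adjusted p = 0.0308) and Calr at 0.64 ± 0.11 (0.0225, limma). These 2 calls ended in 7 and 5 of 9 fits that left out 1 array. Vehicle-labelled brains gave 0 of the 14 (9 at an unadjusted p under 0.05). Without sham 5 and vehicle 2, 7 of the 14 were called higher after MCAO, where 1.85% of all genes were.

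**Figure D3:**
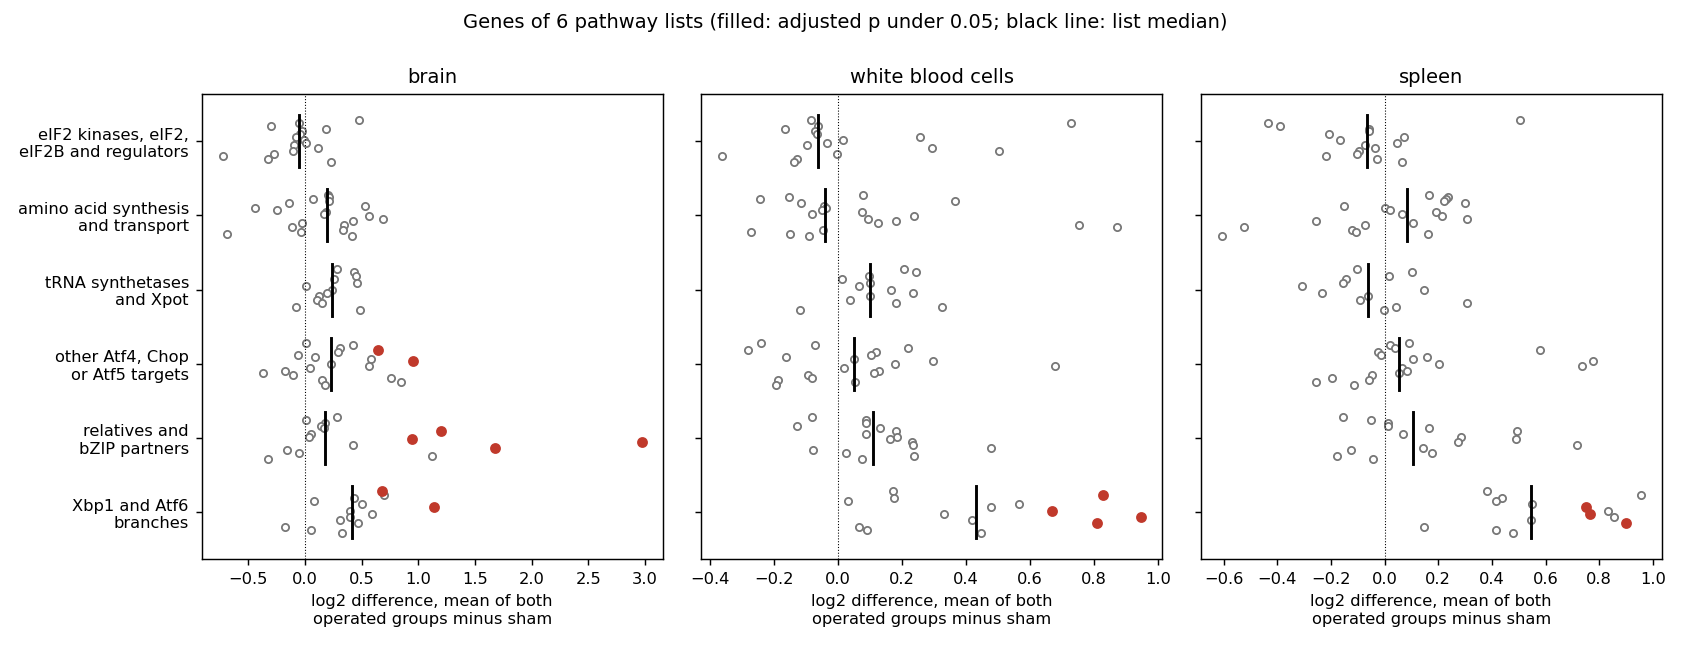
Log2 difference between the mean of both operated groups and sham (x axis, on a separate scale for each tissue) for every measured gene of the 6 lists (y axis), with 1 point per gene, filled where the adjusted p was under 0.05, and a black line at the list's median. Brain has filled points in the lists of other targets (2 of 19), relatives and partners (4 of 16) and the Xbp1 and Atf6 branches (2 of 14), while white cells and spleen have them in the last list only (4 and 3 of 14).

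White blood cells showed another pattern, in which 1 gene of the 8 rose. Asns was higher in the vehicle-labelled rats and not in the model-labelled rats. It read 6.90, 6.64 and 7.04 in sham, 6.98, 7.08 and 6.84 in model-labelled, and 9.0, 9.02 and 8.06 in vehicle-labelled rats 2, 4 and 5. Sham and model-labelled values overlapped, and the lowest vehicle-labelled value, 8.06, was above the highest of the others, 7.08. Vehicle-labelled cells exceeded sham by 1.83 ± 0.21, or 3.56-fold (adjusted p = 0.000248), and exceeded model-labelled cells by 1.73 ± 0.21, or 3.31-fold (adjusted p = 0.000757, limma). Both calls stood in 9 of 9 fits that each left out 1 array, at 1.67 to 2.15 and 1.56 to 2.04. Of all genes, 1.58% and 1.26% were called higher in these comparisons, and 1 of the 8 genes in each.

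Against sham, the mean of both operated groups gave 0.97 ± 0.19 for Asns (adjusted p = 0.0236, limma), a value carried by the vehicle-labelled rats, and 0.820% of all genes were called higher. This call ended without model 1, sham 3 or sham 4 (0.86 to 0.99, adjusted p 0.0546 to 0.12). In model-labelled white cells 0 of the 8 genes and 0% of all genes were called in limma, with Atf5 the only 1 of the 8 at an unadjusted p under 0.05. The medians of the 8 genes were -0.04 for the MCAO mean against sham, -0.20 for model-labelled and 0.08 for vehicle-labelled cells, against -0.05, -0.04 and -0.06 for all genes. Vehicle-labelled minus model-labelled cells gave a median of 0.30, against -0.02 for all genes, with 7 of the 8 differences positive. There 4 of the 8 had an unadjusted p under 0.05 (Asns, Ddit3, Ppp1r15a and Trib3), of which Asns alone was called (limma).

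Markers of the red cell lineage were, like Asns, highest in the vehicle-labelled white cells. Unlike Asns, their mean also lay above all sham arrays in the model-labelled cells. Of 10 such markers 9 were measured, and 8 of the 9 rose in vehicle-labelled cells against sham. Their mean relative to the sham average was -0.21, -0.24 and 0.45 in sham 3, 4 and 5, 0.66, 0.57 and 0.65 in model-labelled 1, 2 and 3, and 2.82, 2.57 and 1.95 in vehicle-labelled 2, 4 and 5. The vehicle-labelled array with the lowest Asns, rat 5, also had the lowest red cell mean of that group. Neutrophil markers rose too, with 6 of 11 called. Their means were 1.25, 1.61 and 1.18 in vehicle-labelled 2, 4 and 5, so rat 5 was lowest in these markers as well. They were 0.04 to 0.56 in the model-labelled cells and -0.21 to 0.16 in sham. Alas2, the red cell enzyme that starts haem synthesis, read 8.45 to 9.10 in sham, 9.65 to 9.94 in model-labelled and 10.95 to 11.62 in vehicle-labelled cells, so the marker was present on every array and its groups did not overlap. The part of these cells in the Asns result was not tested.

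Eif2ak1, the haem-sensing eIF2 kinase that is best known from red cell precursors, was also highest in the vehicle-labelled cells. Its sham and model-labelled values overlapped. It read 7.44, 7.90 and 8.05 in sham, 7.95, 8.02 and 7.75 in the model-labelled and 9.49, 9.21 and 8.73 in the vehicle-labelled white cells. It was higher in vehicle-labelled cells than in sham by 1.35 ± 0.19 (adjusted p = 0.00146) and than in model-labelled cells by 1.24 ± 0.19 (0.00385, limma). Slc6a9, a glycine transporter in the list of amino acid genes that also serves red cell precursors, read 5.56, 5.10 and 5.74 in sham, 5.54, 5.71 and 5.12 in the model-labelled and 7.85, 7.78 and 6.04 in the vehicle-labelled cells (vehicle-labelled minus sham 1.76 ± 0.37, adjusted p = 0.0254, limma). Slc6a9 was also higher in vehicle-labelled than in model-labelled cells, by 1.77 ± 0.37 (adjusted p = 0.0284, limma). That call ended in 6 of 9 fits that left out 1 array. Eif2ak1 and Slc6a9 were each the only gene of their list called higher in vehicle-labelled cells, of 16 and 20. Impact, which restrains the amino acid sensing kinase, fell there by 0.53 ± 0.11 (adjusted p = 0.0304, limma). Both calls of Eif2ak1 stood in 9 of 9 fits that left out 1 array. The sham contrast of Slc6a9 did not pass without vehicle 2 or 4 or sham 3 or 4 (adjusted p 0.0919 to 0.129), nor that of Impact without any array but vehicle 5 or sham 5 (0.0503 to 0.128, limma).

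The other 7 genes did not pass in white cells under any contrast. Atf4 read 8.84 to 9.26 in sham, 8.73 to 9.09 in the model-labelled and 9.03 to 9.07 in the vehicle-labelled cells, and the groups overlapped. Atf3 read 4.92 to 5.69, 5.04 to 5.38 and 5.02 to 5.09 in the same order, with its highest value in a sham rat. Atf5 read 7.28, 7.43 and 7.49 in sham and 7.11, 6.58 and 7.06 in the model-labelled cells, which all lay lower (-0.48 ± 0.15, adjusted p = 0.607, limma), and 7.34, 7.0 and 7.01 in the vehicle-labelled cells. Ppp1r15a read 6.26, 5.98 and 5.96 in sham, 5.62, 6.12 and 6.20 in the model-labelled and 6.64, 6.76 and 6.12 in the vehicle-labelled cells. Its vehicle-labelled minus model-labelled difference of 0.53 ± 0.19 had an adjusted p of 0.269 (limma). Ddit3 ranged over 6.14 to 7.11 in sham, 6.20 to 6.41 in the model-labelled and 6.38 to 7.20 in the vehicle-labelled cells, Chac1 over 4.66 to 5.70, 4.50 to 5.23 and 4.89 to 5.23, and Trib3 over 4.04 to 4.50, 3.87 to 4.37 and 4.40 to 4.53. All of these overlapped between sham and each operated group.

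Of the lists, the Xbp1 and Atf6 branches had 4 of 14 genes called higher in white cells after MCAO: Pdia4 at 0.95 ± 0.15 (adjusted p = 0.00588), Sdf2l1 at 0.81 ± 0.15 (0.0146), Hyou1 at 0.67 ± 0.13 (0.0211) and Creld2 at 0.83 ± 0.16 (0.0252, limma). When 1 array was left out, Pdia4 passed in 9 of 9 fits. The call of Sdf2l1 ended without sham 3, 4 or 5 (adjusted p 0.0564 to 0.0863), that of Hyou1 without vehicle 4, model 1 or 3, or sham 4 or 5 (0.0529 to 0.12), and that of Creld2 without vehicle 4, model 1 or 3, or sham 3 or 4 (0.0544 to 0.13, limma). All 14 differences were positive, with a median of 0.43 against -0.05 for all genes. Against sham, vehicle-labelled cells gave 3 of the 14, Pdia4 at 0.91 ± 0.17 (adjusted p = 0.0105), Sdf2l1 at 0.87 ± 0.17 (0.0145) and Creld2 at 0.80 ± 0.19 (0.0443, limma). These ended in 1, 3 and 7 of 9 fits that left out 1 array. Model-labelled cells gave 0 of the 14 (8 at an unadjusted p under 0.05, median 0.46). The other 5 lists had 0 of 84 genes called for the MCAO mean (limma, 14 at an unadjusted p under 0.05). Their genes with the smallest p included Eif2ak1 at 0.73 ± 0.17 (adjusted p = 0.0686), Got1, which makes aspartate, at 0.37 ± 0.12 (0.311), Xpot at 0.33 ± 0.10 (0.246), the mitochondrial chaperone gene Hspd1 at 0.68 ± 0.17 (0.119) and Jun at 0.48 ± 0.20 (0.443, limma).

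**Figure D4:**
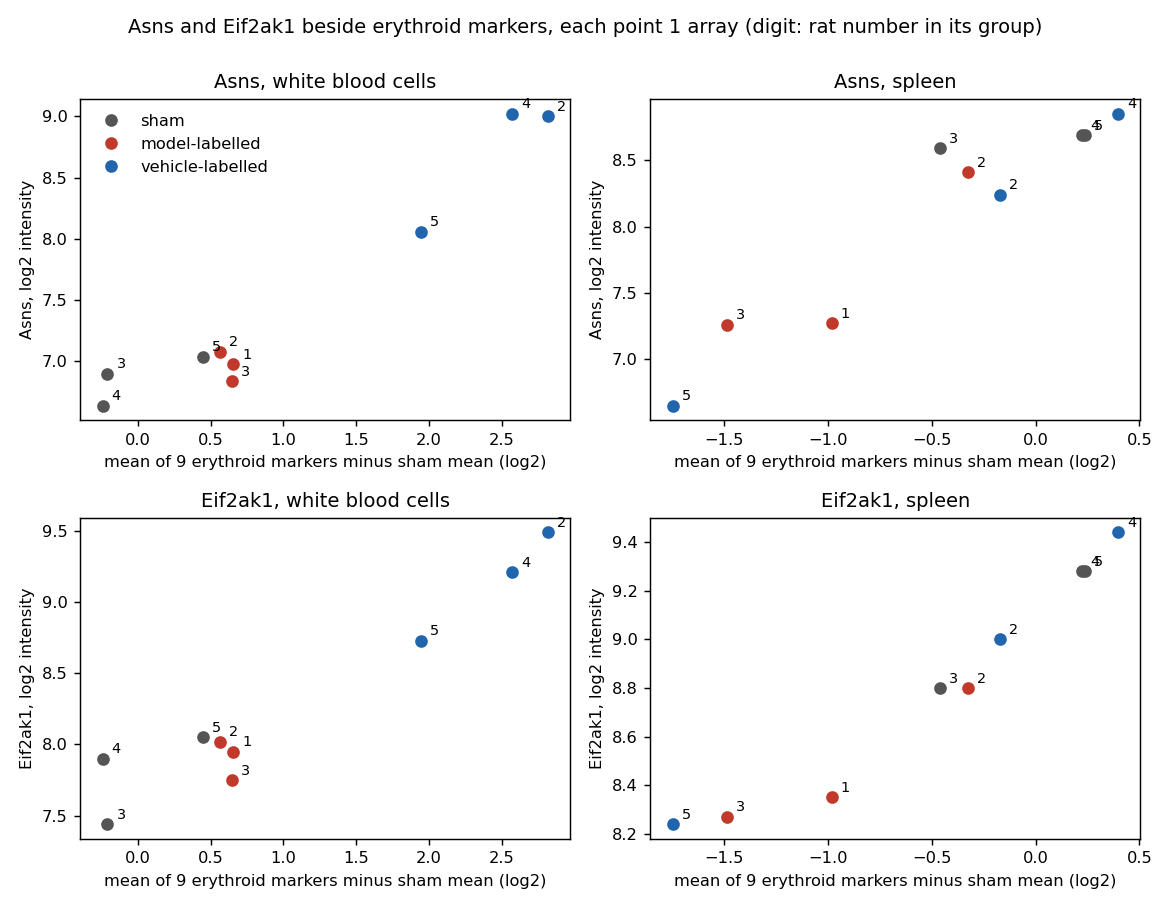
Log2 intensity of Asns (upper panels) and of the kinase gene Eif2ak1 (lower panels) against the mean of 9 red cell markers relative to their sham average (x axis, log2), in white blood cells and spleen, with 1 point per array, coloured by group and numbered by rat. In white cells the vehicle-labelled points lie apart at marker means of 1.95 to 2.82, and in the spleen the arrays lowest in the markers, from -1.75 to -0.98, have the lowest Asns.

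In the spleen 0 of the 8 genes were called in limma in any of the 4 contrasts. At an unadjusted p under 0.05 the count was 1 for the MCAO mean, 1 for model-labelled and 1 for vehicle-labelled spleens against sham, and 0 between the operated groups. Of all genes, 0.0965%, 0.0414%, 0.0483% and 0% were called there. The medians of the 8 genes were 0.05, 0.05, 0.01 and 0.03, and for all genes 0.05, 0.07, 0.04 and -0.02.

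Asns was the most variable of the 8 genes in the spleen. It read 8.59, 8.69 and 8.69 in sham, 7.27, 8.41 and 7.26 in the model-labelled and 8.24, 8.85 and 6.65 in the vehicle-labelled spleens. The SD was 0.06 in sham, 0.66 in the model-labelled and 1.14 in the vehicle-labelled spleens (n = 3 each). All model-labelled spleens lay below sham, while the vehicle-labelled ones fell on both sides. The MCAO difference of -0.88 ± 0.39 did not pass (adjusted p = 0.596, limma). The 3 lowest arrays, vehicle 5, model 3 and model 1, were also lowest in red cell markers, at -1.75, -1.49 and -0.98 relative to the sham average. The other spleens stood between -0.46 and 0.40, and 0 of the 9 red cell markers was called there. Eif2ak1 was lowest on the same 3 arrays, at 8.24, 8.27 and 8.35, against 8.80 to 9.44 on the others. The part of red cell content in these values was not tested.

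Ddit3 did not pass in the spleen. It read 6.36, 6.28 and 6.44 in sham, 6.53, 6.06 and 7.08 in the model-labelled and 6.80, 6.88 and 6.92 in the vehicle-labelled spleens, a vehicle-labelled difference of 0.51 ± 0.20 with an adjusted p of 0.475 (limma). Ppp1r15a read 6.97, 7.56 and 7.68 in sham, 6.75, 7.38 and 6.68 in the model-labelled and 7.30, 7.79 and 6.49 in the vehicle-labelled spleens, with overlap throughout. Atf4 stayed within 8.56 to 8.88 and Atf3 within 5.19 to 5.84 over all 9 spleens. Atf5 ranged over 5.80 to 6.16, Chac1 over 4.67 to 5.49 and Trib3 over 3.87 to 4.28. For none of these 5 genes did a contrast in the spleen reach even an unadjusted p under 0.05.

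In the spleen the lists gave MCAO calls in the Xbp1 and Atf6 branches alone, where Manf at 0.77 ± 0.10, Hspa5 at 0.75 ± 0.10 and Sdf2l1 at 0.90 ± 0.15 rose (limma, adjusted p = 0.0157, 0.0157 and 0.0458), 3 of 14. All 3 calls ended when any 1 of the sham spleens was left out, with adjusted p of 0.0995 to 0.137 for Manf and 0.102 to 0.135 for Hspa5. That of Sdf2l1 ended also without vehicle 2 or 5 or model 2 or 3 (0.0742 to 0.416 over these 7 arrays, limma). The median was 0.55 against 0.05 for all genes, and all 14 differences were positive. Against sham, model-labelled spleens gave 1 of the 14, Hspa5 at 0.91 ± 0.12 (adjusted p = 0.0391, limma). Vehicle-labelled spleens also gave 1, Manf at 0.91 ± 0.12 (0.0221, limma). These 2 calls ended in 7 and 4 of 9 fits that left out 1 array. The other 5 lists had 0 of 84 genes called for the MCAO mean (limma, 12 at an unadjusted p under 0.05). Herpud1 at 0.78 ± 0.17 (adjusted p = 0.212), Hspd1 at 0.74 ± 0.17 (0.227), Ddit4 at 0.58 ± 0.13 (0.236) and Jdp2, a bZIP repressor close to Atf3, at 0.72 ± 0.16 (0.22, limma) did not pass.

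Whether MCAO acted differently between tissues was tested directly in a fit of all 27 arrays. The effect on Atf3 was larger in brain than in white cells by 2.73 ± 0.42 (adjusted p = 0.000843) and larger than in spleen by 2.61 ± 0.42 (0.0016, limma), and both calls stood in all 27 fits that each left out 1 array. The effect on Atf4 was larger in brain than in white cells by 0.81 ± 0.17 (adjusted p = 0.0116), and than in spleen by 0.62 ± 0.17, which did not pass (0.114, limma). That call ended without blood sham 3 or blood sham 5 (0.74 to 0.75, adjusted p 0.0513 to 0.0543). For Ppp1r15a the effect in brain exceeded that in spleen by 1.51 ± 0.34 (adjusted p = 0.0379) and that in white cells by 0.99 ± 0.34, which did not pass (0.222, limma). Of the 8 genes, 2 were called higher in each of these comparisons, against 0.717% and 0.579% of all genes. Without the brain arrays of sham 5 and vehicle 2 the same 2 genes were called in each, with Atf3 at 2.99 ± 0.27 and 2.88 ± 0.27, Atf4 at 0.91 ± 0.18 against white cells and Ppp1r15a at 1.68 ± 0.36 against spleen (limma, adjusted p at most 0.0146).

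The Ppp1r15a call against the spleen was not firm. It ended, at 1.37 to 1.57 with adjusted p from 0.0503 to 0.151, in 14 of 27 fits that left out 1 array: brain sham 3, 4 or 5, brain model 1 or 2, brain vehicle 4 or 5, spleen sham 4 or 5, spleen model 1 or 3, spleen vehicle 2, blood model 2 or blood sham 4. The effect on Asns differed between white cells and spleen by 1.85 ± 0.44 with an adjusted p of 0.0716, so that 0 of the 8 genes were called there (limma, 2 at an unadjusted p under 0.05, 0.400% of all genes called). With the rat as a block, which is how the tissues are linked, the same difference passed at 1.85 ± 0.34 (adjusted p = 0.0106, limma). Without the block it also passed when spleen vehicle 4, spleen vehicle 5, spleen model 2 or blood vehicle 5 was left out (1.53 to 2.08, adjusted p 0.00658 to 0.0271).

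Levels in the sham rats gave the order of the tissues for each probe, though levels of different probes cannot be set against each other. The SEs and p-values of the differences between sham tissues came from the fit of all arrays, without the rat as a block. The spread of the MCAO arrays therefore enters them. Atf4 was highest in white cells at 9.11 ± 0.24 (SD, n = 3), next in spleen at 8.66 ± 0.06 and lowest in brain at 7.93 ± 0.15. Each step was called: brain against white cells at -1.18 ± 0.14 (SE, adjusted p = 4.17e-08), brain against spleen at -0.73 ± 0.14 (5.21e-05) and white cells against spleen at 0.45 ± 0.14 (0.0104, limma). The last of these ended without blood sham 3 or blood sham 5 (0.38 to 0.39, adjusted p 0.0531 to 0.0541). After MCAO the brain levels of Atf4, at 8.66 ± 0.17 in the model-labelled and 8.53 ± 0.19 in vehicle-labelled rats, stood near those of the spleen, 8.68 ± 0.16 and 8.74 ± 0.16 in the same groups (SD).

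Atf5 had another order, with white cells at 7.40 ± 0.11, brain at 6.63 ± 0.08 and spleen at 5.97 ± 0.18 (SD), and all 3 steps were called (limma, adjusted p at most 0.000185). Asns was higher in spleen, at 8.66 ± 0.06, than in brain at 7.04 ± 0.14 or white cells at 6.86 ± 0.20 (adjusted p = 0.000432 and 0.000314, limma), and brain and white cells did not differ beyond their spread. Ppp1r15a was likewise highest in spleen, at 7.40 ± 0.38, against 5.70 ± 0.19 in brain and 6.07 ± 0.17 in white cells (adjusted p = 1.21e-05 and 0.000525, limma). Atf3 stood at 5.50 ± 0.28 in spleen, 5.21 ± 0.42 in white cells and 4.46 ± 0.18 in brain. Its brain level was below the spleen level (-1.03 ± 0.35, adjusted p = 0.0136, limma), with the limit on its brain signal given above, a call that ended without spleen sham 4 (-0.91, adjusted p = 0.0574). Trib3 was lower in brain than in white cells (-0.61 ± 0.17, adjusted p = 0.00374, limma). Without the brain arrays of sham 5 and vehicle 2, Atf3 at -0.68 ± 0.23 (adjusted p = 0.0147) and Ddit3 at -0.60 ± 0.25 (0.0461, limma) were also called lower in brain than in white cells. With all arrays Ddit3 and Chac1 showed no difference between sham tissues that passed.

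Such calls were common, since 59.0%, 53.6% and 39.0% of all genes differed between sham brain and white cells, brain and spleen, and white cells and spleen. The 8 genes gave 3, 5 and 4 calls. Whether the authors normalized the 3 tissues together is not given in the sources used here, which bears on these levels.

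The genes most like Atf3 over the 27 arrays, after the mean of each tissue was taken away, were Depp1 (r = 0.945), the chemokine gene Ccl3 (0.923), the growth factor gene Hbegf (0.911), Nfkbiz (0.910) and Pvr (0.908). Within the 9 brain arrays the 5 correlations were 0.96 to 0.97, in spleen they were 0.39 to 0.70, and in white cells they ranged from -0.37 to 0.31. For Atf4 the 5 were Ifrd1 (r = 0.867), Fgl2 (0.830), Coq10b (0.826), Depp1 (0.824) and Apold1 (0.815), of which Depp1 stood in both lists. The values for Ddit3 were lower, with Piga (r = 0.690), Morc4 (0.668), Arrdc3 (0.637), Jmjd6 (0.636) and Atrip (0.630). These are descriptions over arrays that share rats, groups and normalization, and each member's brain difference between MCAO and sham enters them.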

How the data were processed

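The members and the gene lists were chosen with earlier results of these data known. Per the submitters' processing notes the authors made the array values with RMA, a method of background correction, normalization between arrays and probe summary; its version is not given in the sources used here. The deposited values are taken as log2 intensities from their range, 1.53 to 13.49. No genome build, sequence table or batch was used here, so no positions or sequences are given. Groups come from the sample titles.

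Of 27596 probes, 15310 named 1 gene and were kept, 323 named several and 11963 none. The symbols of 15279 were matched by Entrez ID to a RefSeq gene table, which changed 0. Where a gene had more than 1 such probe (527 genes), the brightest on average was used. The 9 arrays of a tissue were fitted together, 2-sided, by lmFit and eBayes of limma 3.58.1 (R 4.3.3), with 6 residual degrees of freedom. A fit of all 27 arrays (18 residual degrees of freedom) gave differences between tissues. P-values were adjusted by Benjamini-Hochberg over 14506 genes, and an adjusted p under 0.05 was called. The fits were tested on simulated data with independent noise on each array. Those data held no marker differences between arrays and no link between tissues of a rat.

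All members are named, from each list up to 4 genes with the smallest p in the MCAO contrast and up to 4 called genes in the others, and for Atf3, Atf4 and Ddit3 the 5 genes of highest correlation. Trib1, Stc2, Nupr1 and the genes called without the pair of brain arrays were named after their values were seen. Deviations of the same rat in different tissues, a link that rests on the titles, correlated at r from -0.058 to 0.517, with 15 of 27 pairs over 0.1. Alternatives were all arrays in a single fit, quantile normalization, median centring, a filter on low values, the mean of all probes, a robust prior with a variance trend, array weights, blocks, and leaving out arrays. Those for the called genes of the pathway lists, and the list counts without the pair of brain arrays, were added after seeing the data.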

Additional observations from a re-analysis of the deposited data

Results flagged for a closer look

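The effect of MCAO, as the mean of both operated groups minus sham, differed between tissues for 3 of the genes by a test of the difference itself in a fit of all 27 arrays with limma. For Atf3 it was larger in brain than in white blood cells by 2.73 (log2) and larger than in spleen by 2.61. For Atf4 it was larger in brain than in white blood cells by 0.81, while the difference between brain and spleen did not pass (adjusted p = 0.114, limma). For Ppp1r15a it was larger in brain than in spleen by 1.51, a call that ended in 14 of 27 fits that each left out 1 array. The Ppp1r15a difference between brain and white blood cells did not pass (adjusted p = 0.222, limma).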

How the results depend on the processing

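No difference of a member at an unadjusted p under 0.05 changed direction under an alternative that was run (52 differences); of the 92 others, of which 0 were called, 39 changed sign under at least 1. The counts of members called moved as follows, and the cause was not tested. With the replicate block, a factor for the title's number, which the groups of a tissue share without being the same rat (12 pairs, r from -0.474 to 0.377, 2 over 0.1), 0 members were called in brain for the MCAO mean and for model-labelled rats (3 without), 0 in white cells for the MCAO mean and 0 for vehicle-labelled against model-labelled cells (1 without). The block also gave 0 calls over all genes in every brain contrast, with 666 to 1181 genes at an unadjusted p under 0.05. Vehicle-labelled brains against sham (0 called) gave 2 members in the fit of all arrays, 4 with array weights and 3 without sham 5 and vehicle 2. The white cell MCAO mean (1) gave 0 in the fit of all arrays and 0 after quantile normalization, and vehicle-labelled against model-labelled cells (1) gave 2 with array weights. The white cell minus spleen effect (0) gave 1, Asns, with median centring, the filter, array weights, the rat as a block and the rat as a random block; the rat block changed no other call of an effect. Sham brain against white cells (3) gave 5 with array weights and 5 without sham 5 and vehicle 2. Trib3 was called for sham brain against spleen without brain sham 3, and for sham white cells against spleen with median centring.

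Leaving out each array in turn gave 0 to 3 members for the brain MCAO mean and for model-labelled brains, 0 to 2 for vehicle-labelled brains, 0 to 1 for the white cell MCAO mean, 1 to 2 for the brain effect against white cells and against spleen, 0 to 1 for white cells against spleen, and 3 to 4 for sham brain against white cells. Atf3 lost its brain MCAO call with the variance trend as well, and Atf4 with median centring.

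Over all genes the calls were 116 (0 to 637 over the alternatives) for the brain MCAO mean, 168 (0 to 573) for model, 7 (0 to 369) for vehicle and 8 (0 to 346) for vehicle minus model. White cells gave 135 (11 to 174), 0 (0 to 13), 291 (107 to 350) and 226 (7 to 555) in the same order, and spleen 14 (0 to 46), 6 (0 to 123), 7 (0 to 29) and 0 (0 to 317). Effects gave 130 (96 to 347) for brain minus white cells, with 196 under the rat block, 93 (52 to 395) for brain minus spleen and 58 (7 to 148) for white cells minus spleen, with 91 under the rat block. With 3 arrays per group the number of arrays limits the precision.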
